A study of Mus musculus with 8 samples.

Results

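The secreted and membrane-bound matrix metalloproteinases and their tissue inhibitors were followed in mouse macrophages on the way to osteoclasts. The set held 10 of the 16593 genes by platform symbol, 7 of proteases (Mmp2, Mmp8, Mmp9, Mmp12, Mmp13, Mmp14 and Mmp19) and 3 of inhibitors (Timp1, Timp2 and Timp3). They were read by 14 of the 25697 probes on the array, 9 for proteases and 5 for inhibitors. All of these probes are accounted for below. Bone marrow cells of C57BL/6 mice aged 6 to 8 weeks had been grown into adherent macrophages (BMM) with macrophage colony-stimulating factor (M-CSF). For all samples this included 16 h overnight in M-CSF at 5 ng/ml and 3 days of expansion in M-CSF, and serum was at 10%. The macrophages were then kept in M-CSF at 30 ng/ml with RANKL, the cytokine that drives osteoclast formation, at 50 ng/ml for 0, 1, 2 or 3 days. Total RNA of each day was read on 2 single-colour MouseRef-8 v2.0 bead arrays, 8 arrays in all. No array from cells held on M-CSF alone for 1 to 3 days was analysed here, so RANKL and time in culture cannot be told apart. Whether both arrays of a day stem from separate mice or cultures is not in the labels, and p-values then measure only the spread between these samples, possibly a technical one.

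Matrix metalloproteinases are zinc endopeptidases made as inactive zymogens, and together they cleave most proteins of the extracellular matrix. Tissue inhibitors of metalloproteinases bind the active site of the mature enzyme, and the protein made from Timp2 also takes part with MMP14 in activating pro-MMP2 at the cell surface. In bone, MMP9 and MMP14 are known from osteoclasts, where acid and cathepsin K break down most of the mineralised matrix, while MMP13 is best known as the collagenase of osteoblasts and hypertrophic chondrocytes.

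The 100 bases before the transcription start are shown for 5 members that changed with time and have a start in the RefSeq promoter table (build GRCm38.p6), so that Mmp14, the strongly rising protease with an entry there, stands beside falling proteases and the inhibitors. The table held a promoter for 7 of the 10 genes (8 promoters). Capitals mark matches, on either strand, to an AP-1 element (TGANTCA), the NFAT core (TGGAAA), a GC box (GGGCGG) or a TATA box (TATAAA). Mmp14 (chr14:54431498-54431597, plus strand) carries a pair of GC boxes that begin 19 and 13 bases before the start:
Mmp14: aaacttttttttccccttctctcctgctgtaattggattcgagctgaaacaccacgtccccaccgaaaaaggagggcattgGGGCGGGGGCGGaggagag
Timp2 (chr11:118355412-118355511, minus strand) and Timp1 (chrX:20870066-20870165, plus strand) each carry 1 GC box, that of Timp1 on the opposite strand:
Timp2: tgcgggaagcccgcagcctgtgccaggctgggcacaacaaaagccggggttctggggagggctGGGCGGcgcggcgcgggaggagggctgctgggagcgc
Timp1: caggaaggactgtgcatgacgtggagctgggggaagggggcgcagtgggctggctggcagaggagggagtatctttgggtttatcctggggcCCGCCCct
Mmp13 (chr9:7272414-7272513, plus strand) and the second annotated start of Mmp12 (chr9:7347274-7347373, plus strand) each carry an AP-1 element, 35 and 44 bases before the start:
Mmp13: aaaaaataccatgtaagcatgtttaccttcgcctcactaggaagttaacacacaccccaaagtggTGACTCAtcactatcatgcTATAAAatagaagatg
Mmp12: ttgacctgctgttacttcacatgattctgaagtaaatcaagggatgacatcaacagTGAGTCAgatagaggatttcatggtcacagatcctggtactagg
Over windows of 300 bases (250 before to 50 after the start), the AP-1 letters occurred in 7.8%, the NFAT core in 21.4%, the GC box in 35.7% and the TATA box in 13.6% of all 32851 promoters in the table. The window of Timp2 held 68.7% G and C, that of Mmp14 56.0% and that of Timp1 55.0%, against 43.7% for Mmp13, 40.7% for the second Mmp12 start and a median of 52.7% over all promoters. Outside the printed bases, the Mmp13 window held an NFAT core beginning 146 bases before the start, and the window of the second Mmp12 start a TATA box after the start. No matches overlapped, and the first annotated Mmp12 start held none of these motifs. These matches describe the sequence and say nothing of binding.

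Signals are bead intensities on a linear scale, and a probe counts as detected on an array where its deposited detection p is under 0.05. The arrays were alike in depth, with 11281 to 11361 probes detected on each and a median signal of 164.6 to 180.6. Over the tested probes, r was 0.993 to 0.995 within a day and 0.883 to 0.985 between days, and these probes are not independent of each other. Most markers of the 2 expected cell types moved in opposite directions. By the test described below, 7 of 8 detected osteoclast markers were higher at day 3 than at day 0, and 5 of 6 macrophage markers lower. Of all tested probes, 28.1% were called in each direction. Among the markers the exceptions were Itgb3 (0.03 ± 0.23 log2) and Itgam (-0.38 ± 0.16), and Atp6v0d2 was not detected. Calcr, Dcstamp and Ocstamp had day 0 signals of 150.6 to 164.7. They passed the filter through the later days, at which they were high, so their rise is a description. The sums lean on the brightest gene, Ctsk for the osteoclast sum at day 3 and Lyz2 for the macrophage sum. The summed normalised intensity of 8 detected osteoclast markers (of 9) lay between 1060 and 1200 at day 0, between 16800 and 17900 at day 1, between 42500 and 43900 at day 2, and between 52100 and 52200 at day 3. That of 6 macrophage markers lay between 50600 and 53800 at day 0, 37700 and 38500 at day 1, 27700 and 30200 at day 2, and 26800 and 28300 at day 3. Among the other cell types, 3 of 13 stromal and osteoblast markers were detected (day 0: 119 to 150, day 1: 262 to 275, day 2: 231 to 260, day 3: 135 to 175), with Col1a2, Col3a1, Lum and Pdgfra not among them. Of 8 B, T and NK cell markers 3 were detected, at sums of 133 to 147 at day 3 and 1520 to 1560 at day 0 (Cd79a, Ms4a1 and Cd3e were not), and of 6 endothelial markers 1 was, Vwf, at 128 to 134 at day 3 and 31.5 to 40.9 at day 0. The B, T and NK sum at day 0 leans on Il7r (mean log2 10.36, with Cd79b at 7.40 and Klrd1 at 5.84). The part of these shifts in the results below was not tested.

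Of the 14 probes, 8 passed the filter on dim probes (detected on at least 2 of the 8 arrays) and were tested, 5 for proteases and 3 for inhibitors. They were fitted with limma together with all 12683 probes that passed, and a probe is called higher or lower where its Benjamini-Hochberg adjusted p over those probes is under 0.05. Normalised values are log2 intensities, and each change is the later day minus the earlier. Against day 0, 2 member probes were higher and 2 lower at day 1, 2 were higher and 4 lower at day 2, and 3 were higher and 4 lower at day 3. Of all tested probes, 23.6% were higher and 19.4% lower at day 1, 26.7% and 24.1% at day 2, and 28.1% and 28.1% at day 3. Against day 1, 3 members were higher and 3 lower at day 2 (21.1% and 23.5% of all probes), and 3 were higher and 3 lower at day 3 (26.9% and 30.0%). Between day 3 and day 2, 1 member was higher and none lower, against 8.70% and 9.82% of all probes. Any difference among the 4 days was called by the F test for 7 of the 8 member probes and for 69.9% of all probes. The median change of the 8 probes at day 3 against day 0 was -0.57, beside -0.01 over all tested probes. Against so many calls elsewhere on the array, the counts are no result about the family, and the description below rests on its single changes. The 3 comparisons with day 0 share its 2 arrays.

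**Figure D1:**
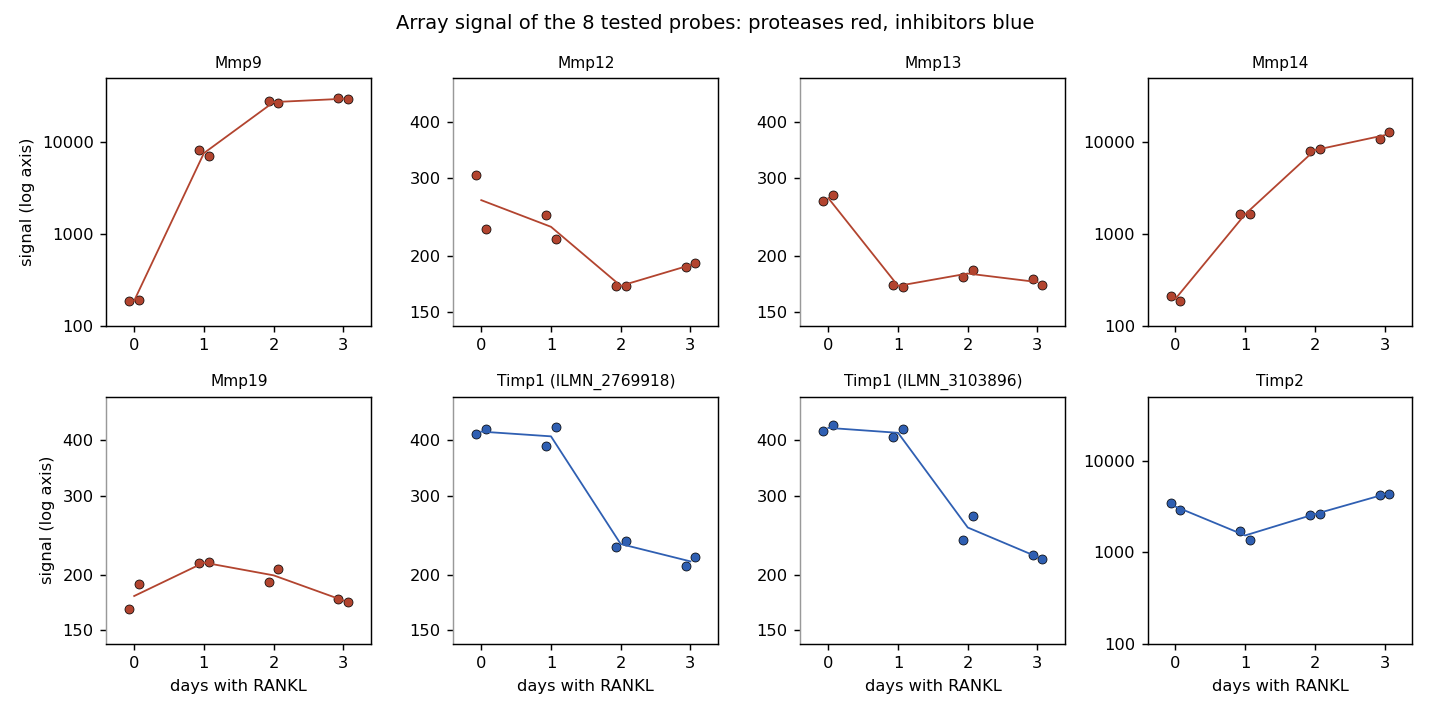
Deposited signal (log axis) of the 8 tested probes by days with RANKL, 1 point per array and lines through the day means, proteases in red and inhibitors in blue. Mmp9, Mmp14 and Timp2 share a wide axis range and the other probes a narrow one, on which all signals lie between 167.5 and 432.

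Mmp9 (probe ILMN_2711075, gene on chromosome 2), the gelatinase that osteoclasts are known to secrete, had signals of 185 and 189.7 at day 0, 8237 and 7052 at day 1, 28121 and 27035 at day 2, and 30366 and 29623 at day 3. It was detected on both day 0 arrays, near the background, and no arrays of different days overlapped. Its normalised level rose by 7.21 ± 0.10 at day 1 against day 0 (SE, n = 2 arrays a day, 148-fold, limma adjusted p = 4.5e-07), the largest increase among the 12683 probes. It also rose by 1.98 ± 0.10 at day 2 against day 1 (3.95-fold, limma adjusted p = 2.51e-05). Day 3 and day 2 were not called different (0.19 ± 0.10, limma adjusted p = 0.227). The total at day 3 was 9.38 ± 0.10 above day 0 (665-fold, limma adjusted p = 3.74e-08), rank 2 of the array. The brightest probe on each array had a signal of 40502 to 43559, so Mmp9 at days 2 and 3 lay in the upper part of the signal range. The fold rests on a faint day 0. Without background correction the changes from day 0 were 5.22 at day 1, 7.18 at day 2 and 7.37 at day 3, all called.

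Mmp14 (probe ILMN_1240726, chromosome 14), which encodes the membrane-anchored protease MT1-MMP, had signals of 208.6 and 184.1 at day 0, 1637 and 1654 at day 1, 8083 and 8422 at day 2, and 11037 and 12962 at day 3. The days did not overlap. It rose by 4.66 ± 0.19 at day 1 against day 0 (25.3-fold, limma adjusted p = 8.14e-06) and by 2.59 ± 0.19 at day 2 against day 1 (6.02-fold, limma adjusted p = 0.000102). Its increase over day 0 ranked 9 of 12683 at day 1, 5 at day 2 and 3 at day 3. At day 3 it stood 7.80 ± 0.19 above day 0 (223-fold, limma adjusted p = 3.99e-07), and 2.93, 5.40 and 5.94 above it at days 1, 2 and 3 without background correction, all called. Day 3 against day 2 was not called (0.55 ± 0.19, limma adjusted p = 0.0946), and 6 of 19 alternatives called it, at adjusted p of 0.00023 to 0.291 over all 19. Of the promoters printed above, that of Mmp14 carries the pair of GC boxes. It holds no AP-1 element, and neither do those of Timp1 and Timp2. A link of these motifs to the rise was not tested.

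Mmp12 (probe ILMN_1250421, chromosome 9) encodes macrophage metalloelastase, which cleaves elastin. Its signals were 304.5 and 229.8 at day 0, 247.4 and 218.4 at day 1, 172.1 and 171.6 at day 2, and 189.1 and 193.4 at day 3. Days 0 and 1 overlapped, and at day 2 the probe was not well above background on either array. The day 1 level differed from day 0 by -0.55 ± 0.26, which was not called (limma adjusted p = 0.126). The day 0 arrays decided its size: leaving out the first gave -0.17 (adjusted p = 0.545) and leaving out the second gave -0.94 and a call (adjusted p = 0.0164), with adjusted p of 0.0164 to 0.545 over 18 alternatives. At day 2 it was lower than at day 0 (limma adjusted p = 0.000621) and lower than at day 1 (limma adjusted p = 0.00378). The bounds on these falls were 3.08-fold and 2.1-fold. Such bounds set the undetected day at the lowest signal among probes detected on its arrays, or at the probe's own value where higher. Here and below they rest on background-corrected day means and carry no error, so the change can be smaller. The p-values test the change itself and not the bound. At day 3 it was detected again on both arrays, at a level that fell by 1.09 ± 0.26 against day 0 (limma adjusted p = 0.0095). That fall was 0.70 without the first and 1.47 without the second day 0 array, and was called in all 18 alternatives (adjusted p of 0.00141 to 0.0429). Day 3 against day 2 was not called (limma adjusted p = 0.0508). Over the alternatives this change was 0.24 to 1.04 log2, called in some and not in others. With day 2 undetected, its size was not measured. Without background correction the changes from day 0 were -0.65 at day 2 and -0.41 at day 3, both called. In a bulk sample, fewer cells of a type and less RNA per cell cannot be told apart. The macrophage marker sum fell over the same days, whereas between days 2 and 3 its ranges overlapped.

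Mmp13 (chromosome 9), the interstitial collagenase gene of the mouse, had 3 probes that disagreed. Probe ILMN_2737685 had signals of 266.1 and 273.8 at day 0, 172.5 and 171.1 at day 1, 179.6 and 186.6 at day 2, and 177.9 and 172.5 at day 3. It was detected on both day 0 arrays and otherwise on 1 array of day 3, so it passed the filter only through the day at which it was high. Its falls from day 0 are therefore a description. The bounds, set as for Mmp12, were 3.34-fold lower at day 1 and 3.3-fold lower at day 2 than at day 0. At day 3, where 1 of 2 arrays measured it, the change from day 0 was -1.72 ± 0.15. Without background correction the changes from day 0 were -0.68, -0.59 and -0.58 at days 1, 2 and 3. No pair of days after day 0 was called different. The other 2 probes, ILMN_1249336 and ILMN_2799267, lay between 149.4 and 178.9 and between 155.7 and 169.6, detected on no array, and their day 0 signals were 162.8 and 158.2 for the first and 157.2 and 169.6 for the other. The day 0 signal of Mmp13 therefore rests on 1 of 3 probes.

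Mmp19 (probe ILMN_2595908, chromosome 10), a secreted protease that acts on basement membrane proteins, stayed faint throughout. Its signals were 167.5 and 190.6 at day 0, 212.5 and 212.9 at day 1, 192.6 and 205.7 at day 2, and 176.7 and 173.3 at day 3, detected on 6 of 8 arrays. Day 1 was the highest day, and days 0 and 3 overlapped. The F test over the 4 days was not called (limma adjusted p = 0.0712), nor was day 1 against day 0 (0.68 ± 0.23, limma adjusted p = 0.0529). The F test was called in 5 of 17 alternatives (adjusted p of 0.00684 to 0.209 over all of them), and day 1 against day 0 in 6 of 18 (0.00612 to 0.192). Without the first day 0 array the day 1 difference was 0.32, and without the second it was 1.04. Day 3 was lower than day 1 (-0.72 ± 0.23, limma adjusted p = 0.0331). That call was lost without either array of day 1 or of day 2, or without the second array of day 3 (-0.55 to -0.76, adjusted p of 0.0526 to 0.155).

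The remaining proteases gave no signal above background. Mmp2 (probe ILMN_2678218, chromosome 8), the gelatinase whose zymogen MMP14 activates, lay between 144.7 and 171.9 on the 8 arrays. Mmp8 (probe ILMN_1241378, chromosome 9), the neutrophil collagenase, lay between 138 and 165.1. Together with the 2 faint Mmp13 probes and both probes of Timp3 (chromosome 10), an inhibitor that binds to the matrix, they gave 48 values, none of them detected, with a lowest detection p of 0.0802. The Timp3 probes lay between 146.1 and 172.3 (ILMN_2614759) and between 152.7 and 174.7 (ILMN_2741096). When the filter was dropped, 1 of these 6 probes was called in 1 of 6 comparisons (Mmp13 ILMN_1249336, day 3 lower than day 1, limma adjusted p = 0.0416). An array signal at background sets no upper limit on the transcript beyond what that probe can detect.

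Timp2 (probe ILMN_2712867, chromosome 11), which encodes the inhibitor of both MMP2 and MMP14, had signals of 3412 and 2878.6 at day 0, 1698.6 and 1348.6 at day 1, 2572.7 and 2635.2 at day 2, and 4203.3 and 4365.2 at day 3. Day 1 was the lowest day and day 3 the highest, with no overlap between days. It fell by 1.26 ± 0.12 at day 1 against day 0 (2.39-fold lower, limma adjusted p = 0.00027), then rose by 1.01 ± 0.12 at day 2 against day 1 (limma adjusted p = 0.000727). Day 2 and day 0 were not called different (-0.25 ± 0.12, limma adjusted p = 0.128). Day 3 was higher than day 2 by 0.85 ± 0.12 (1.8-fold, limma adjusted p = 0.00734), the only member change called over that step, and without the second array of day 2 it was 0.82 at an adjusted p of 0.0501. Day 3 was also higher than day 0, by 0.59 ± 0.12 (1.51-fold, limma adjusted p = 0.00499).

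Timp1 (chromosome X) encodes a secreted inhibitor that binds pro-MMP9 as well as active enzymes. Probe ILMN_2769918 had signals of 412 and 422.9 at day 0, 387.9 and 426.9 at day 1, 230.9 and 237.1 at day 2, and 208.9 and 219.1 at day 3. Probe ILMN_3103896 had 419.2 and 432 at day 0, 405.6 and 424.1 at day 1, 239.3 and 270.2 at day 2, and 221 and 216.9 at day 3. Both probes overlapped between days 0 and 1 and were lower on every array of days 2 and 3. Day 1 against day 0 was not called (-0.18 ± 0.13 and -0.18 ± 0.14, limma adjusted p = 0.307 and 0.328). At day 2 against day 1 they fell (-1.45 ± 0.13 and -1.18 ± 0.14, limma adjusted p = 0.000215 and 0.000628). At day 3 they were 3.32-fold and 3.2-fold lower than at day 0 (-1.73 ± 0.13 and -1.68 ± 0.14, limma adjusted p = 3.76e-05 and 5.47e-05). Without background correction these changes were -0.88 and -0.87, both called. Day 3 against day 2 was not called for either probe (limma adjusted p = 0.65 and 0.156). The summed intensity of 9 neutrophil and precursor markers fell over the same days (day 0: 1380 to 1490, day 1: 967 to 1100, day 2: 406 to 420, day 3: 394 to 400). At day 0 this sum leans on S100a8 (mean log2 9.49, the next being Mpo at 7.49). The macrophage sum and the B, T and NK sum were also lower at day 3 than at day 0. The part of any of these in the fall of Timp1 was not tested.

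**Figure D2:**
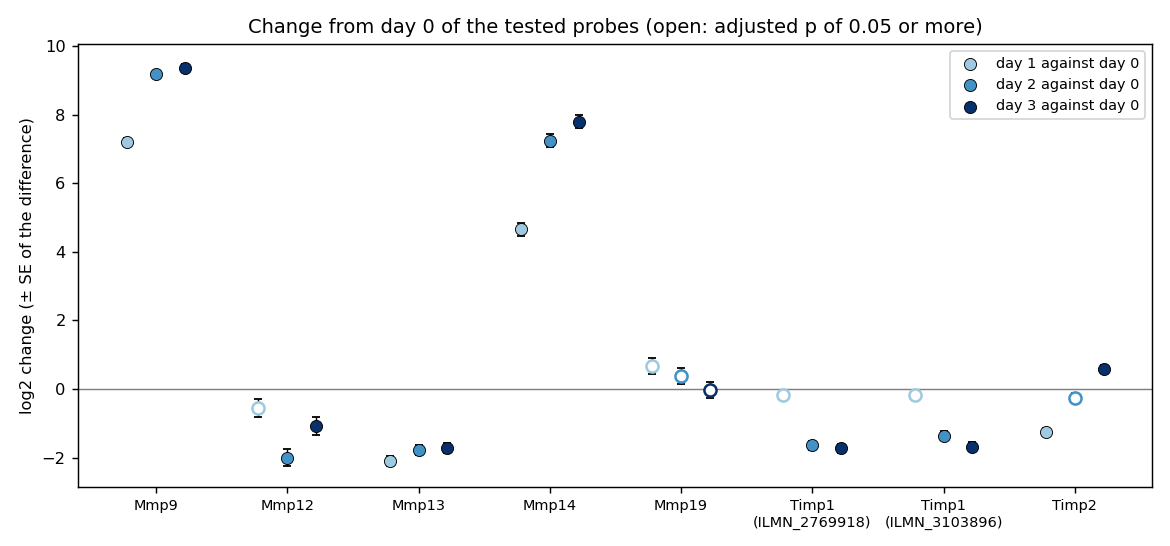
Change of each tested member probe (x axis) from day 0 in log2 normalised intensity at days 1, 2 and 3, with the SE of the difference as bars and open circles where the change was not called. Mmp9 and Mmp14 reach 9.38 and 7.80 at day 3, while the other probes lie below 1 on every day. Mmp12 at day 2 and Mmp13 at days 1 and 2 were detected on no array, so their points there are no measured changes.

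Proteases were set against inhibitors as changes from day 0, since levels of different probes cannot be compared. The rise of Mmp9 exceeded the change of Timp2 by 8.47 ± 0.12 at day 1, 9.44 at day 2 and 8.78 ± 0.01 at day 3 (log2, SD over the 2 arrays of that day). These SDs leave out the spread at day 0, where the SD of this difference was 0.22. The margin was widest at day 2, and over the last step Timp2 rose while Mmp9 was not called different. Mmp14 less Timp2 followed the same course, with 5.92 ± 0.30 at day 1, 7.50 ± 0.02 at day 2 and 7.21 ± 0.12 at day 3. Against Timp1 (probe ILMN_2769918) the margin of Mmp9 was 7.39 ± 0.29, 10.83 ± 0.06 and 11.11 ± 0.02 at days 1, 2 and 3, and that of Mmp14 was 4.85 ± 0.11, 8.89 ± 0.08 and 9.53 ± 0.10. The other Timp1 probe gave margins at day 3 of 11.05 ± 0.18 for Mmp9 and 9.48 ± 0.30 for Mmp14. The day 0 SD of Mmp14 was 0.31 over Timp2, and 0.55 and 0.56 over the Timp1 probes.

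For the 3 faint proteases the margins at day 3 were below 0 over Timp2. Over Timp1 they were above 0 for Mmp19 and within 1 SD of 0 for Mmp13. Those of Mmp12 over Timp1 lay within the SD of its day 0 arrays (0.67). Mmp12 less Timp2 gave 0.70 ± 0.08 at day 1 and -1.68 ± 0.04 at day 3, and Mmp13 less Timp2 gave -2.31 ± 0.30 at day 3. Mmp12 at day 2 and Mmp13 at days 1 and 2 were detected on no array, so no margin is given there, and at day 3 Mmp13 was detected on 1 of 2 arrays. Mmp19 less Timp2 was 1.93 ± 0.26, 0.64 ± 0.06 and -0.64 ± 0.25 at days 1, 2 and 3. Over the Timp1 probes ILMN_2769918 and ILMN_3103896 the day 3 margins were 0.64 ± 0.07 and 0.59 ± 0.13 for Mmp12, 1.69 ± 0.28 and 1.63 ± 0.08 for Mmp19, and 0.01 ± 0.33 and -0.04 ± 0.13 for Mmp13. At day 0 the SD over Timp2 was 0.43 for Mmp12, 0.24 for Mmp13 and 0.62 for Mmp19, and over Timp1 0.38 for Mmp19. The printed SDs leave this spread out. These margins add the errors of 2 probes and carry no test.

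**Figure D3:**
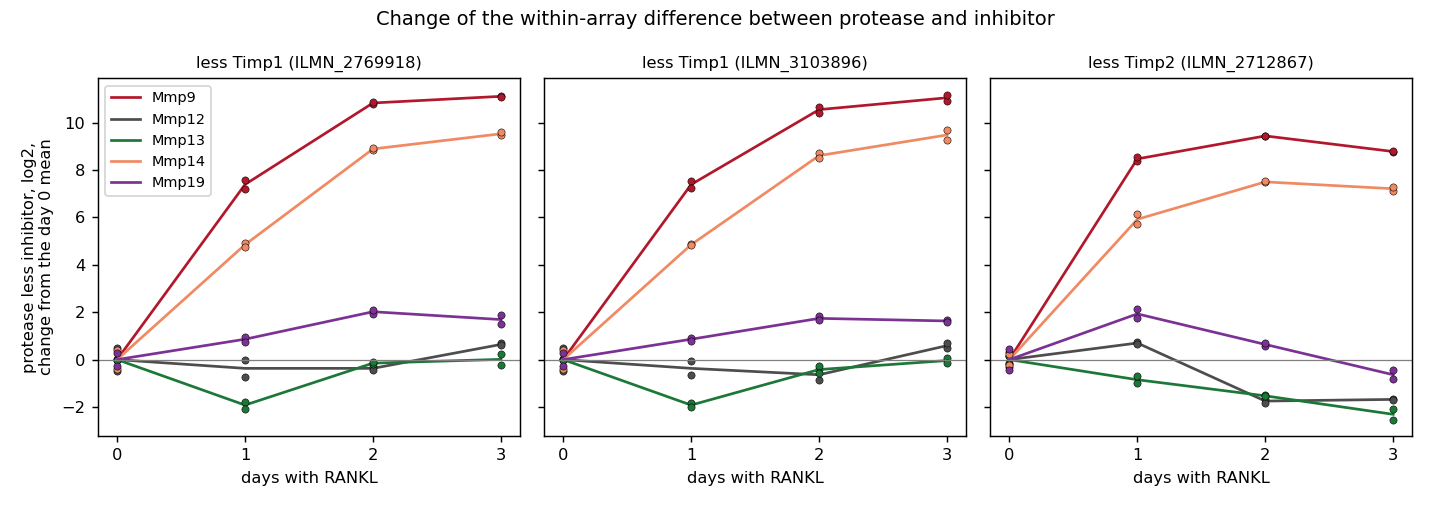
Change of each protease from day 0 less that of Timp2 or of Timp1, in log2, by days with RANKL, with 1 point per array and lines through the day means. Points of Mmp12 at day 2 and of Mmp13 at days 1 and 2 rest on undetected signals. For Mmp9 and Mmp14 the margins over Timp2 peak at day 2 (9.44 and 7.50), whereas those over Timp1 are highest at day 3.

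Over the 8 arrays the levels of Mmp9 and Mmp14 correlated at r = 0.98 and the 2 Timp1 probes at r = 0.98. Mmp14 and Timp1 correlated at r = -0.88, and Mmp19 and Timp2 at r = -0.81. Such values describe 4 days of 2 arrays each, and all come from the same 8 arrays. Among 3248 other genes whose day means spanned at least 1 log2 unit, the profile most like that of Mmp9 was Src (probe ILMN_3148543, r = 0.9995), followed by Kyat1 (0.9986) and Cyp2s1 (0.9983). For Mmp14 these were Lmtk2 (r = 0.9984), Casp4 (0.9969) and Hagh (0.9968). Timp2, with its low point at day 1, was most like Gnpda1 (r = 0.99), Pygl (0.988) and Sat1 (0.9859). For Timp1 they were Tubgcp2, Trex1 and Adap1 (r = 0.9937 to 0.996), for Mmp12 Prps2, App and Dok4 (0.9616 to 0.9841), and for Mmp13 Ednrb, Cdhr3 and Pla2g15 (0.9902 to 0.994).

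Mmp12, Mmp13 and Mmp8 lie in a run of 10 neighbouring metalloproteinase genes on chromosome 9 (Mmp13, Mmp12, Mmp1b, Mmp3, Mmp1a, Mmp10, Mmp8, Mmp27, Mmp20 and Mmp7, in the RefSeq order). Probes represented 9 of them, and 3 had a probe that passed the filter: Mmp13, Mmp12 and Mmp1a. Mmp1a, a collagenase-like gene of the mouse, had 2 probes, of which 1 passed the filter. That probe had signals of 290.7 to 338 on the 8 arrays and was called in no comparison (0.06 ± 0.09 at day 3 against day 0, limma adjusted p = 0.627). In the rest of the metalloproteinase and inhibitor family, 14 of 17 further genes had probes and 2 were detected, Mmp1a and Mmp28. Mmp28, which encodes epilysin, was lower at day 2 than at day 1 (-0.85 ± 0.26, limma adjusted p = 0.0367). At day 3 against day 0 it differed by -0.59 ± 0.26, which was not called (limma adjusted p = 0.0992). The inhibitor gene Timp4 was detected on 1 array and was not tested.

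Among the disintegrin-type proteases of the ADAM and ADAMTS families, which shed membrane proteins or cut proteoglycans, 8 of 16 genes with probes were tested. At day 3 against day 0, 5 were lower, none higher and 3 not called, beside 28.1% of all tested probes in each direction, with a median of -0.73 beside -0.01 over all tested probes. Adam33, among the 5 lower, was detected only on the 2 day 0 arrays. It passed the filter only through the day at which it was high, so its fall is a description. Adam8 had signals of 546.4 and 592.9 at day 3, against 4047.2 and 3860.9 at day 0, a change of -2.94 ± 0.10 (limma adjusted p = 1.29e-06). Adam15 fell by 2.44 ± 0.10 (limma adjusted p = 2.4e-06). Adam17, the sheddase of TNF, fell by 1.07 ± 0.10 (limma adjusted p = 8.41e-05), and Adam9 fell by 0.73 ± 0.24 (limma adjusted p = 0.0364). Adamts4, an aggrecan-cutting protease named after its values were seen, was higher at day 2 than at day 0 by 1.63 ± 0.22 (limma adjusted p = 0.00077), though not called at day 3 against day 0 (0.60 ± 0.22, limma adjusted p = 0.0511).

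Genes that activate, clear or otherwise inhibit metalloproteinases numbered 11 tested (17 with probes). At day 3 against day 0, 3 were higher, 5 lower and 3 not called, beside 28.1% of all tested probes in each direction, and their median was -0.10. Among these, Thbs2 (higher) was detected on neither day 0 array, and Lcn2 (lower) on neither day 3 array. The urokinase gene Plau, whose product starts the plasmin cascade that activates several pro-MMPs, had signals of 3750.5 and 3764.6 at day 0, 734.3 and 818.6 at day 1, 526.5 and 549.6 at day 2, and 482.4 and 434.5 at day 3. It fell by 3.29 ± 0.14 at day 3 against day 0 (limma adjusted p = 3.03e-06), and its receptor gene Plaur fell by 2.62 ± 0.12 (limma adjusted p = 4.16e-06). Lrp1, an endocytic receptor that clears MMP9 and MMP13, fell by 1.18 ± 0.10 (limma adjusted p = 6.08e-05). Cav1, which encodes the caveolar coat protein caveolin 1, was highest at day 1 (4.05 ± 0.15 above day 0, limma adjusted p = 6.32e-06). It was still higher at day 3 than at day 0, by 2.41 ± 0.15 (limma adjusted p = 1.62e-05).

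Of the matrix substrates, 12 of 25 genes with probes were tested, and 3 were higher, 3 lower and 6 not called at day 3 against day 0, near the 28.1% of all tested probes in each direction, with a median of -0.05. Hspg2, which encodes the basement membrane proteoglycan perlecan, was detected on the 4 arrays of days 2 and 3 and on no earlier one, and passed the filter through those days. Its bound of at least 9.04-fold higher at day 3 than at day 0 is a description. Dcn, which encodes decorin, was not detected at day 0 either, and passed the filter only through the later days, at which it was high. Its bounds of at least 4.58-fold higher at day 1 and at least 1.66-fold higher at day 3 than at day 0 are likewise a description. Dcn also stood on the list of stromal markers and was the only one of those called at day 3 against day 0. Col18a1, the source of endostatin, fell by 1.20 ± 0.10 at day 3 against day 0 (limma adjusted p = 5.64e-05). Lamb2, a laminin chain gene, was detected only on the 2 day 0 arrays, so it passed the filter only through the day at which it was high, and its bound of at least 1.88-fold lower at day 3 than at day 0 is a description.

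**Figure D4:**
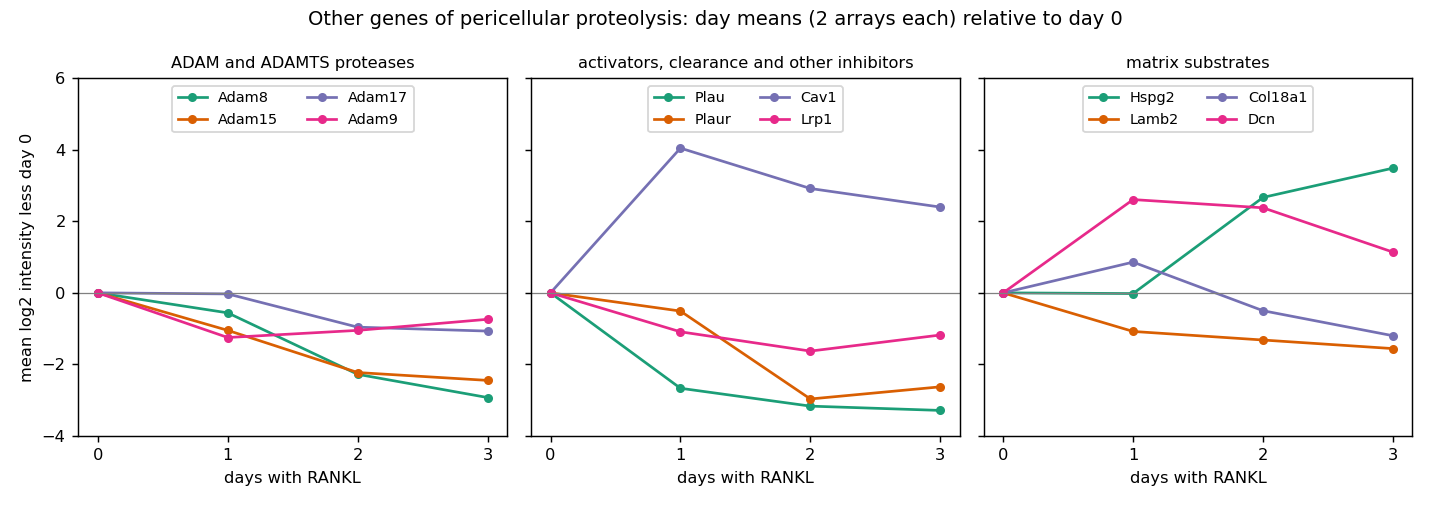
Mean change from day 0 in log2 normalised intensity (2 arrays a day) of up to 4 genes with the largest called changes from each of 3 lists, by days with RANKL. Adam8, Adam15, Plau and Plaur lie below 0 on every later day, while Cav1 peaks at day 1 at 4.05. Hspg2 is highest at day 3. The heights of Hspg2, Dcn and Lamb2 are no measured changes, since Hspg2 and Dcn were not detected at day 0 and Lamb2 on no later day.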

How the data were processed

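Linear intensity was deposited for every probe on every array, without background subtraction or normalization as read from its values, and with a detection p-value for each signal, per the file headers. The authors' processed intensity values (medians of 90.9 to 97.3 per array, no value for 56 probes) lay below the signals by a median of 76.0 to 86.3. They served only as an alternative, and the sources used here do not give what was subtracted. Signals were processed with neqc in limma 3.58.1 (R 4.3.3): normexp background correction, with the negative controls' mean and spread read from detection p, then an added offset (16), quantile normalization and log2. The filter kept 12683 of 25697 probes, those detected (p below 0.05) on 2 or more of the 8 arrays. Each probe was fitted with 4 day means over all 8 arrays (lmFit and eBayes, leaving 4 residual degrees of freedom). Each comparison had its own Benjamini-Hochberg adjustment, with a threshold of 0.05. The number of arrays limits the precision: the median standard error of a difference was 0.13.

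Gene symbols came from the platform annotation, of which 23978 probes had 1. Named were every member probe, up to 4 called genes per further list by the size of their change at day 3 against day 0, all detected genes of the rest of the family, and the 3 genes most like each member past the F test. Each gene outside the member set was read by its detected probe with the highest mean. The members and lists were chosen with earlier results of these data known. The model was tested on simulated data. Promoters, neighbouring genes and chromosomes came from RefSeq tables (GRCm38.p6), whose build was not matched to the array's probes.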

Additional observations from a re-analysis of the deposited data

How the results depend on the processing

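Each result was recomputed under 11 other settings and without each array in turn where these apply, and no call reversed. With day 3 against day 2, the number of member probes called higher was 2 without background correction, with an offset of 50, with a detection p under 0.01, with 1 probe per gene, with the authors' values, with the replicate block and with only the 2 days compared, and 3 with a trended robust spread. It was 0 to 3 when 1 array was left out. On probes detected on all 8 arrays, 1, 2 and 2 member probes were lower at days 1, 2 and 3 against day 0, since Mmp12 and Mmp13 then drop out. Without the filter, which tests all 25697 probes, the shares of all probes called higher and lower were 10.3% and 8.92% at day 1, 12.1% and 11.2% at day 2, and 13.4% and 13.2% at day 3 against day 0. They were 9.43% and 10.5% at day 2 against day 1, 3.14% and 3.24% at day 3 against day 2, and 12.7% and 14.0% at day 3 against day 1, and 33.2% by the F test. For day 3 against day 2 the share higher was 13.1% without background correction, 5.40% with median scaling, 4.80% with the authors' values, 4.52% with only those days and 2.37% to 8.23% with 1 array left out. The share lower was 16.1% on probes detected on all arrays, 18.9% with the authors' values, 14.8% with a trended robust spread, 3.66% with only those days and 1.99% to 8.77% with 1 array left out. The cause was not tested.

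The margins of Mmp9 and Mmp14 over the inhibitors at day 3 against day 0 kept their sign, and those of Mmp12, Mmp13 and Mmp19 were not rerun. Without background correction they were 6.79 for Mmp9 over Timp2, 8.24 and 8.23 over the Timp1 probes, 5.37 for Mmp14 over Timp2, and 6.82 and 6.81 over Timp1. With an offset of 50 they were 8.00, 9.99, 9.96, 6.50, 8.49 and 8.46 in the same order, and with the authors' values 7.62, 9.36, 9.44, 6.21, 7.95 and 8.03. Median scaling gave 11.21 for Mmp9 over Timp1 probe ILMN_2769918. A larger offset and no subtraction shrink changes of probes near background by construction.

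Samples with the same replicate number did not deviate together (r of -0.09 to 0.08 over 6 pairs of days). With 2 arrays a day, this cannot tell whether they share a mouse or a culture. With the replicate block, Mmp12 was also called lower at day 1 against day 0 (adjusted p = 0.0494) and at day 3 against day 1 (0.0437) and higher at day 3 against day 2 (0.0275). Of the changes of single member probes, 846 alternatives stayed on the same side of the threshold, called or not, 33 added a call, 6 lost one (Mmp19 5 times, Timp2 once) and 3 moved without a call.

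With 2 arrays a day, changes of faint probes such as Mmp12, Mmp13 and Mmp19 are limited by background: their size depends on its correction.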
